A study of Mus musculus with 4 samples.

Results

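The genes described here encode the working parts of the lysosome: 7 peptidases, 6 glycosidases and 1 sulfatase, 4 luminal proteins that handle lipids, 8 membrane proteins, and 12 subunits or partners of the V-ATPase, the proton pump that acidifies the organelle. They were taken from a list of 38 mouse symbols, matched to the table of read counts through the Entrez gene number. The list was chosen with earlier results of these data known. Shares of the 38 set beside shares of all genes are therefore descriptions and not tests. All 38 were found among 24116 genes in the table, and all 38 were among the 14194 genes that passed the filter on low counts.

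RNA-seq was done on mouse embryonic stem cells labelled with strain 12910la. The libraries labelled knockout, called labelled knockout 1 and labelled knockout 2 here, are 2 in number. Their titles name a knock-out of Kdm2a, which encodes an enzyme that removes methyl groups from histone H3. Their genotype label says that Kdm2a was knocked down. The protocol describes a guide RNA, a sort for GFP and the expansion of a single clone, so the line is taken to be 1 clone. Traits of such a clone and of the Kdm2a genotype cannot be told apart in these libraries. The other 2 libraries carry a wild-type genotype label. All cells grew in serum medium with LIF on gelatin. Whether libraries of 1 label stem from different cultures is stated nowhere in the labels. The p-values then measure only the spread between these 4 libraries, which may be technical.

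Kdm2a itself had 193.8 and 261 CPM (counts scaled to library size, with TMM factors) in the libraries labelled knockout, against 151 and 184 CPM in wild type, a log2 fold change of 0.44 (SE 0.24, adjusted p = 1.00, edgeR quasi-likelihood). Its RNA was thus not lower under the knockout label, and both libraries labelled knockout lay above both of wild type. The reason was not tested. Protein was not measured, so the labels could not be checked by it, and every direction below rests on them. Total counts were 18844246 to 19056529 per library. Labelled knockout 1 correlated across genes at r = 0.984 and 0.978 with the wild-type libraries, and at r = 0.952 with labelled knockout 2. Labelled knockout 2 correlated at r = 0.938 and 0.959 with wild type 1 and 2, which correlated at r = 0.968 with each other. Labelled knockout 2 thus had the lowest correlations, by a small margin for wild type 2. Results are therefore given for each library, and again with each left out. Of 10 pluripotency markers, including Pou5f1 and Sox2, none was at 0. Their summed level was 7439 and 5969 CPM in the libraries labelled knockout and 7078 and 6707 CPM in wild type. Labelled knockout 2 exceeded labelled knockout 1 in 1 of the 10 (50% of all genes). Relative to the mean log2 CPM of wild type, their median was 0.14 in labelled knockout 1 and -0.27 in labelled knockout 2.

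Lysosomes are acidic organelles in which hydrolases break down proteins, sugar chains and lipids delivered by endocytosis and autophagy. The V-ATPase has a V1 sector in the cytosol, which hydrolyses ATP, and a V0 sector in the membrane, through which protons pass. Many lysosomal genes are known to carry an E-box called the CLEAR element, which is bound by the transcription factors TFEB, TFE3 and MITF. In mouse embryonic stem cells the location of TFE3 is known to bear on the exit from naive pluripotency.

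As a set, the 38 genes were high in labelled knockout 2 and not in labelled knockout 1. Of 54 other tested lysosomal genes, described below, 32 lay above the wild-type mean in labelled knockout 2 (50.7% of all genes). Reads of the 38 genes made up 0.362% and 0.657% of all counts in labelled knockout 1 and 2, against 0.448% and 0.356% in wild type 1 and 2. The sum was thus highest in labelled knockout 2, while labelled knockout 1 lay between the wild-type libraries. With 2 libraries against 2, an exact two-sided permutation test of this share cannot go below p = 0.333.

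Relative to the mean log2 CPM of wild type, the median of the 38 genes was -0.12 in labelled knockout 1 and 0.83 in labelled knockout 2, whereas the medians over all genes tested were 0.01 and 0.01. In labelled knockout 2, 34 of 38 genes lay above the wild-type mean (50.7% of all genes did), 30 lay above both wild-type libraries (36.9% of all genes) and 11 were at least 1 log2 unit above the mean (6.82%). In labelled knockout 1, 8 of 38 lay above the wild-type mean (51.2% of all genes), 15 lay below both wild-type libraries (26.3%), 21 lay between them (48.3%) and 0 were at least 1 log2 unit above the mean (0.817%). Labelled knockout 2 held the highest of the 4 values for 30 of the genes, where the share over all genes was 33.6%. The other 8 were highest in wild type 1, and none was highest in labelled knockout 1 (16.9% of all genes were).

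**Figure D1:**
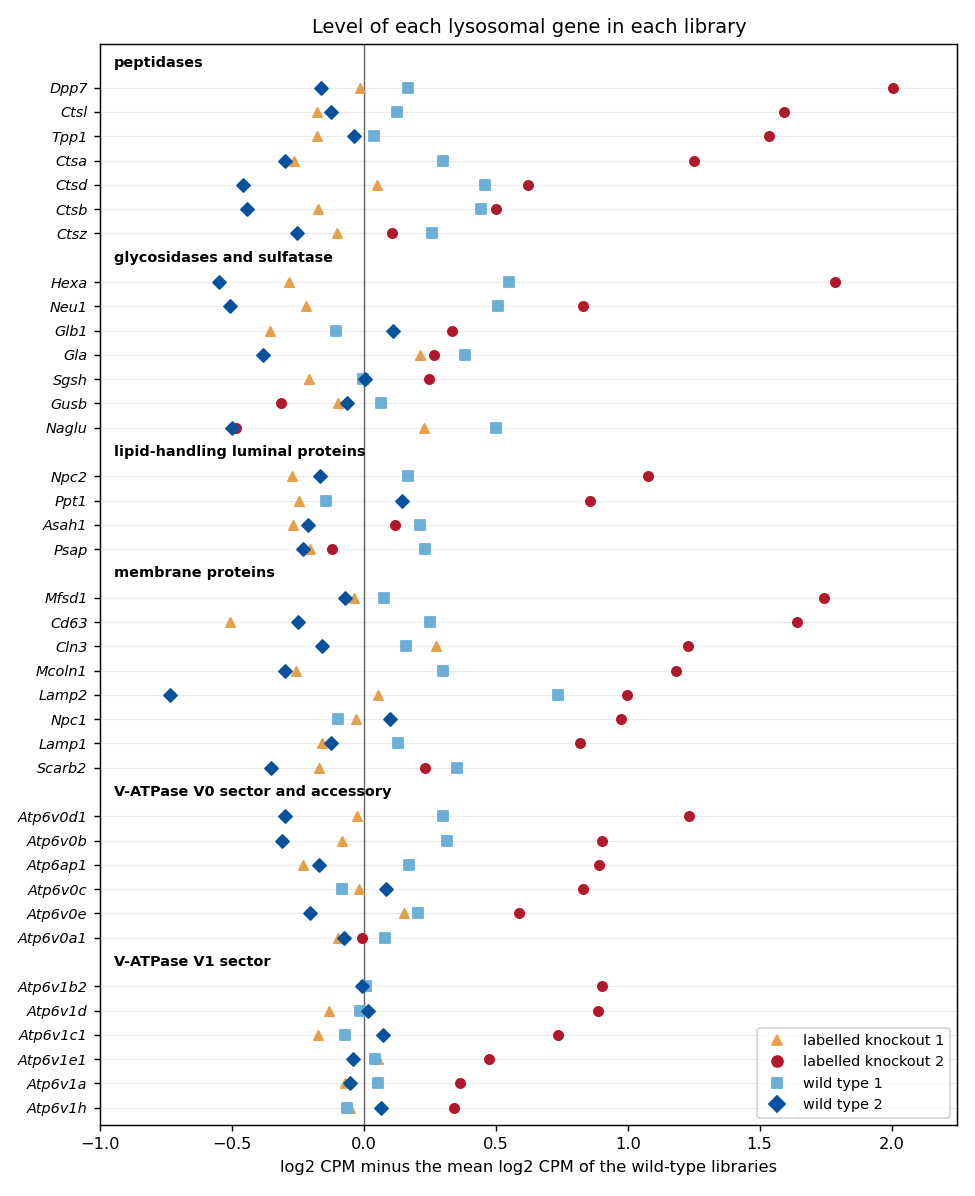
Each row is 1 of the 38 genes, grouped by role, and each point is 1 library; the x axis is log2 CPM minus the mean log2 CPM of both wild-type libraries, so 0 is the wild-type mean. Labelled knockout 2 lies to the right of both wild-type libraries for 30 genes, and labelled knockout 1 mostly lies between or left of them.

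Tested as knockout against wild type, no lysosomal gene passed. The edgeR quasi-likelihood test called 0 of 38 at an adjusted p under 0.05, where 0 of 14194 genes (0%) were called in all. At an unadjusted p under 0.05 the test again gave 0 of 38, against 1.7% of all genes, and the adjusted p of every one was 1.00. DESeq2 and the likelihood ratio test also called 0 of the 38, where they called 0.0141% and 0.0282% of all genes. At an unadjusted p under 0.05 they gave 3 and 2 of the 38, against 2.35% and 2.52% of all genes. Fold changes were nevertheless positive for 32 of 38 (50.5% of all genes), with a median log2 fold change of 0.40, against 0.00 over all genes tested. Only 2 genes, Cln3 and Atp6v1e1, lay higher in both libraries labelled knockout than in both of wild type (11.7% of all genes), and 1, Gusb, lay lower in both (12.7%).

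The median rested on labelled knockout 2. Without it, the median log2 fold change was -0.12, 6 of 38 genes were positive, and 28 had the opposite sign. Labelled knockout 1 then lay above both wild-type libraries for 3 genes (26% of all genes) and below both for 15 (25.3%), with library factors set anew. In edgeR's quasi-likelihood test it gave 0 of 38 called (0.0549% of all genes) and 0 of 38 at an unadjusted p under 0.05 (1.18%).

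Without labelled knockout 1, the median was 0.81 and 34 genes were positive. Labelled knockout 2 lay above both wild-type libraries for 30 genes (37% of all genes) and below both for 1 (36.6%). This fit sets 1 library against 2 and takes its spread from wild type alone, so it compares that library with wild type, not the genotypes. In it, edgeR's quasi-likelihood test called 3 of 38, Dpp7, Mfsd1 and Ctsl, where 0.618% of all genes were called. At an unadjusted p under 0.05 it gave 20 of 38, against 12.5% of all genes.

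Leaving out a wild-type library left 0 of 38 called (0% of all genes in each). Without wild type 1, both libraries labelled knockout were above the remaining one for 20 genes (29% of all genes) and below it for 1 (27.1%). Without wild type 2 the counts were 6 (33.8%) and 8 (33.9%). The median was 0.56 without wild type 1 and 0.26 without wild type 2.

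**Figure D2:**
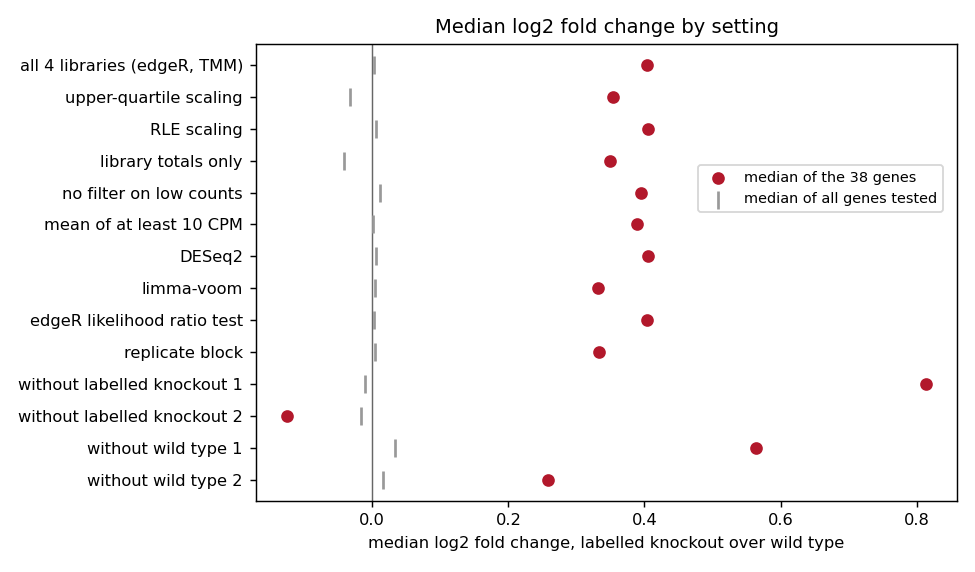
Each row is a way of fitting the counts; the red point is the median log2 fold change (labelled knockout over wild type) of the lysosomal genes and the grey bar that of all genes tested. The red point lies at 0.40 with all 4 libraries, at -0.12 without labelled knockout 2 and at 0.81 without labelled knockout 1.

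Among the peptidases, Dpp7, Ctsl and Tpp1 stood furthest above wild type in labelled knockout 2. Dpp7, a dipeptidyl peptidase (chr2:25352290-25356389, GRCm38.p6), had 31.3 and 127 CPM in labelled knockout 1 and 2, against 35.5 and 28.3 CPM in wild type 1 and 2. Its log2 fold change of 1.32 (SE 0.59) was the largest of the 38 and had an unadjusted p of 0.0597 in edgeR's test. Labelled knockout 1 lay between the wild-type libraries, so the groups overlap. Without labelled knockout 1 the log2 fold change was 2.00 (SE 0.32, adjusted p = 0.0270, edgeR quasi-likelihood), and without labelled knockout 2 it was -0.02.

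Ctsl, a cysteine endopeptidase, had 93.4 and 319 CPM in the libraries labelled knockout, against 115 and 96.9 CPM in wild type. Its log2 fold change was 0.96 (SE 0.51), and 1.58 without labelled knockout 1 (adjusted p = 0.0481, edgeR quasi-likelihood). Labelled knockout 1 was here the lowest of the 4. Tpp1, which removes tripeptides from the ends of proteins, showed the same order of libraries, with 79.3 and 261 CPM, against 92.3 and 87.4 CPM in wild type, and a log2 fold change of 0.92 (SE 0.50).

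Ctsa is the carboxypeptidase that also stabilises beta-galactosidase and sialidase. It had 115 and 329 CPM in the libraries labelled knockout, against 169.8 and 112 CPM in wild type. Ctsd, the aspartic protease, was the most abundant peptidase per length of exon. It had 361 and 538 CPM, against 480.04 and 254 CPM in wild type. Ctsb, a cysteine protease, had 154 and 246 CPM in the libraries labelled knockout and 236 and 128 CPM in wild type. For Ctsd and Ctsb the wild-type libraries differed from each other by more than those labelled knockout did on the log2 scale, and their log2 fold changes were 0.29 (SE 0.35) and 0.13 (SE 0.36). Ctsz, a carboxypeptidase, stood at -0.02. Other annotated genes lie over 22.3%, 16.3%, 31.5% and 28.2% of the exon bases of Ctsa, Ctsb, Ctsd and Ctsl in GENCODE M21, and since the strand setting of the counting is not given, reads of those neighbours cannot be told apart from theirs there.

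The glycosidases and the sulfatase differed among themselves. Hexa, the alpha subunit of beta-hexosaminidase, had 47.1 and 198 CPM in the libraries labelled knockout, against 84.2 and 39.2 CPM in wild type, a log2 fold change of 0.99 (SE 0.65). Both labels held 1 higher and 1 lower library, and the ratio of the highest to the lowest library, 5.05, was the largest among the 38. Neu1, the lysosomal sialidase, had the same arrangement at a lower level, with 23.3 and 48.3 CPM, against 38.7 and 19.03 CPM in wild type.

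Glb1, the lysosomal beta-galactosidase, had 83.1 and 134 CPM in the libraries labelled knockout and 98.7 and 115 CPM in wild type, so that wild type lay inside the range of the others. Naglu, an enzyme of heparan sulfate breakdown, was low and had 5.64 and 3.41 CPM, against 6.85 and 3.37 CPM in wild type. Gla, the alpha-galactosidase, was at 0.19 (SE 0.34). Sgsh, the heparan sulfatase, was at 0.04 (SE 0.48), from 57 to 75 counts in a library, and exons of another gene lie over 21.9% of its exon bases. Gusb, the beta-glucuronidase, was lower in both libraries labelled knockout, with 27.0 and 23.2 CPM against 30.3 and 27.6 CPM in wild type, a log2 fold change of -0.21 (SE 0.27, unadjusted p = 0.473, edgeR). The median of these 7 relative to wild type was 0.26 in labelled knockout 2, and that of the 7 peptidases was 1.25.

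Of the luminal proteins that handle lipids, Npc2 and Ppt1 were high in labelled knockout 2. Npc2, which carries cholesterol inside the lysosome, had 103 and 264 CPM in the libraries labelled knockout, against 140.3 and 111 CPM in wild type. Ppt1, which removes palmitate from proteins, had 31.04 and 66.8 CPM, against 33.3 and 40.7 CPM in wild type. Their log2 fold changes were 0.54 (SE 0.42) and 0.40 (SE 0.39). Psap, the precursor of the saposins that help enzymes reach lipids, had 277 and 294 CPM in the libraries labelled knockout, against 375 and 273 CPM in wild type. Both libraries labelled knockout thus lay between those of wild type for this gene. Asah1, the acid ceramidase, was at -0.08 (SE 0.26).

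All 8 membrane proteins had a positive fold change, with a median of 0.58, and 7 of them were highest in labelled knockout 2. Lamp1, a main glycoprotein of the lysosomal membrane, was the most abundant of the 38 per length and in CPM. It had 438 and 862 CPM in labelled knockout 1 and 2, against 534 and 447 CPM in wild type. Its mean was 649.6 ± 299.7 CPM in the libraries labelled knockout and 490.5 ± 60.9 CPM in wild type (SD, n = 2 each), so the difference is smaller than the spread between libraries of the knockout label. Mfsd1, a transporter of the major facilitator family (chr3:67582768-67604231), had 49.4 and 170.2 CPM, against 53.4 and 48.2 CPM in wild type. Its log2 fold change was 1.11 (SE 0.52, unadjusted p = 0.0696, edgeR), and 1.74 without labelled knockout 1 (adjusted p = 0.0314, edgeR quasi-likelihood).

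Cln3, a multi-span membrane protein whose loss causes a childhood storage disease in humans, was the 1 enzyme or membrane gene that was higher in both libraries labelled knockout. It had 25.3 and 49.3 CPM, against 23.4 and 18.8 CPM in wild type, a log2 fold change of 0.82 (SE 0.38, unadjusted p = 0.0647, edgeR). Exons of other genes lie over 13.2% of its exon bases. The value of labelled knockout 1 exceeded that of wild type 1 by less than the wild-type libraries differed from each other.

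Cd63, a tetraspanin, had 15.2 and 67.7 CPM in the libraries labelled knockout, against 25.8 and 18.2 CPM in wild type, and an annotated copy, Cd63-ps, makes its count uncertain. Mcoln1, a calcium channel of the lysosome, had 33.2 and 90.3 CPM, against 48.9 and 32.2 CPM in wild type. Npc1, the membrane partner of Npc2 in cholesterol export, had 46.7 and 93.7 CPM, against 44.5 and 50.97 CPM. In each of these 3, only labelled knockout 2 stood outside the wild-type range on the high side.

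Lamp2, the other main membrane glycoprotein and a receptor for chaperone-mediated autophagy in 1 of its forms, had 45.6 and 87.97 CPM in the libraries labelled knockout, against 73.4 and 26.4 CPM in wild type. Its wild-type libraries differed by -1.47 on the log2 scale (wild type 2 minus wild type 1), the largest such difference of the 38. Only for Hexa, Neu1 and Lamp2 was it at least 1 log2 unit (3 of 38, against 10.8% of all genes). Scarb2, the receptor that brings glucocerebrosidase to the lysosome, had 79.002 and 104 CPM, against 113 and 69.6 CPM in wild type, with a log2 fold change of 0.00 (SE 0.30).

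In the V1 sector of the V-ATPase, all 6 members had a positive fold change and all 6 were highest in labelled knockout 2, with a median of 0.60 above the wild-type mean there and -0.06 in labelled knockout 1. Atp6v1b2, a subunit of the ATP-hydrolysing head, had 284 and 529.6 CPM in the libraries labelled knockout, against 285 and 282 CPM in wild type. Atp6v1a, the catalytic subunit of that head, had 182 and 246 CPM, against 198.6 and 184 CPM in wild type. Labelled knockout 1 was at 0.00 for Atp6v1b2 and -0.07 for Atp6v1a relative to the wild-type mean on the log2 scale.

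Atp6v1d, part of the central shaft that turns in the pump, had 59.4 and 121 CPM in the libraries labelled knockout, against 64.4 and 65.8 CPM in wild type. Atp6v1e1, a peripheral stalk subunit, had 63.1 and 84.6 CPM, against 62.6 and 59.1 CPM in wild type, and so lay higher in both libraries labelled knockout. The margin was small, 1207 counts in labelled knockout 1 against 1198 in wild type 1, and its log2 fold change was 0.28 (SE 0.25). Atp6v1c1 and Atp6v1h, subunits at the join of the sectors, were at 0.35 and 0.16.

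In the V0 sector, 5 of 6 were positive. Atp6v0c, the subunit that builds the proton-carrying ring, had 212 and 381 CPM in the libraries labelled knockout, against 202 and 227 CPM in wild type, a log2 fold change of 0.47 (SE 0.30). Its annotated copies, Atp6v0c-ps1 and Atp6v0c-ps2, could share its reads. Atp6v0d1, which couples the ring to the shaft, had 134 and 321 CPM, against 168 and 111 CPM in wild type, and a log2 fold change of 0.70 (SE 0.42). Atp6v0b, another ring subunit, had 56.8 and 113 CPM, against 74.8 and 48.5 CPM in wild type.

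Atp6ap1, an accessory protein of the pump, had 58.5 and 128 CPM in the libraries labelled knockout, against 77.3 and 61.1 CPM in wild type. Atp6v0e, a small membrane subunit, was at 0.37 (SE 0.29). Atp6v0a1, 1 of 4 alternative forms of the large membrane subunit, was at -0.05 (SE 0.23), and its level in labelled knockout 2 was -0.01 relative to the wild-type mean. Over the 12 V-ATPase genes the median in labelled knockout 2 was 0.78 above the wild-type mean, and over the 26 other lysosomal members it was 0.84. In the same groups the wild-type libraries differed by -0.09 and -0.44 in the median (wild type 2 minus wild type 1).

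Levels can be compared between genes only per length, here as CPM per kb of exon in GENCODE M21. On this scale Lamp1 was highest of the 38 in wild type, at 220.05 ± 27.3 (SD, n = 2), and Atp6v0c and Ctsd followed at 171 ± 14.1 and 172 ± 75.2, neighbours that do not differ beyond their spread. Sgsh and Naglu were lowest, at 0.794 and 2.00. Among V-ATPase subunits, Atp6v0c was highest in every library, with 168 and 303 CPM per kb in the libraries labelled knockout and 161 and 180.5 in wild type. The 4 forms of the large membrane subunit are compared next. Atp6v0a1 had 14.4 and 15.4 CPM per kb in the libraries labelled knockout, against 16.3 and 14.6 in wild type, the highest of the 4 in every library. Atp6v0a2 had 8.78 and 10.2, against 8.37 and 9.98 in wild type. Tcirg1 had 6.14 and 3.73, against 8.65 and 5.84 in wild type, and in wild type its range overlapped that of Atp6v0a2. Atp6v0a4 was lowest in 3 libraries and close to Tcirg1 in wild type 2, with 3.15 and 2.22, against 4.92 and 5.95 in wild type.

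**Figure D3:**
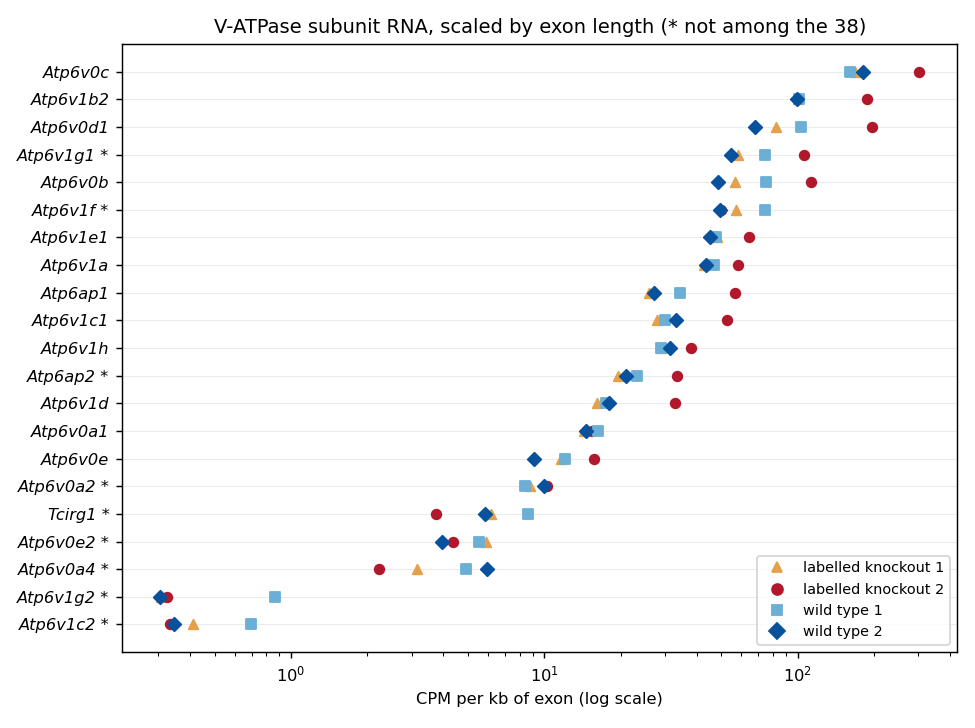
Each row is a V-ATPase gene and each point a library; the x axis is CPM per kb of exon on a log scale, and stars mark subunits outside the 38 genes. Atp6v0c is highest in all 4 libraries, and Tcirg1 and Atp6v0a4 have their lowest value in labelled knockout 2.

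The 2 libraries labelled knockout differed from each other by more than the labels did. Labelled knockout 2 exceeded labelled knockout 1 in 36 of 38 genes (50% of all genes tested), the exceptions being Gusb and Naglu, with a median difference of 0.93 on the log2 scale. Wild type 2 exceeded wild type 1 in 8 of 38 (47.5% of all genes), with a median difference of -0.33. A higher value in labelled knockout 2 than 1 together with a lower value in wild type 2 than 1 was found in 28 of 38 genes, and in 19.3% of all genes.

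**Figure D4:**
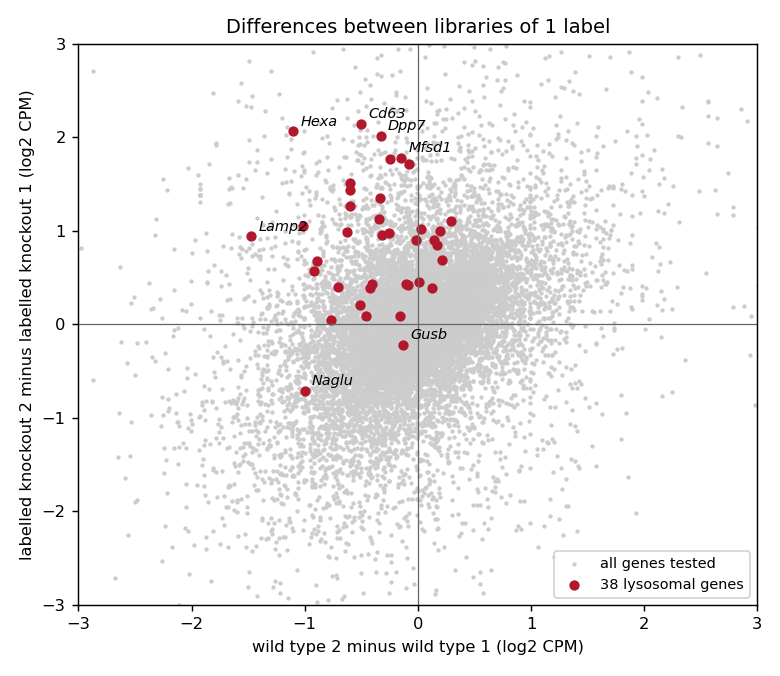
Each point is a gene; the y axis is the log2 CPM of labelled knockout 2 minus labelled knockout 1 and the x axis that of wild type 2 minus wild type 1. Of the lysosomal genes in red, 28 of 38 lie in the upper left quadrant, which holds 19.3% of all genes.

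Values of lysosomal genes outside the 38 are given beside these. The 38 had been picked with results of these data known, so the contrast is a description. Over 54 other tested lysosomal genes, 27 had a positive fold change (50.5% of all genes). In labelled knockout 2, 32 lay above the wild-type mean (50.7%), 6 of them by at least 1 log2 unit (6.82%). The 29 other hydrolases had a median log2 fold change of -0.06 (0 called), the 16 other membrane proteins 0.11 (0 called), and the 9 other V-ATPase genes -0.21 (0 called). In labelled knockout 2 their medians relative to wild type were 0.14, 0.38 and -0.28, and in labelled knockout 1 they were -0.25, -0.22 and -0.18. Labelled knockout 2 was the highest library for 15 of 29, 11 of 16 and 3 of 9 (33.6% of all genes).

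**Figure D5:**
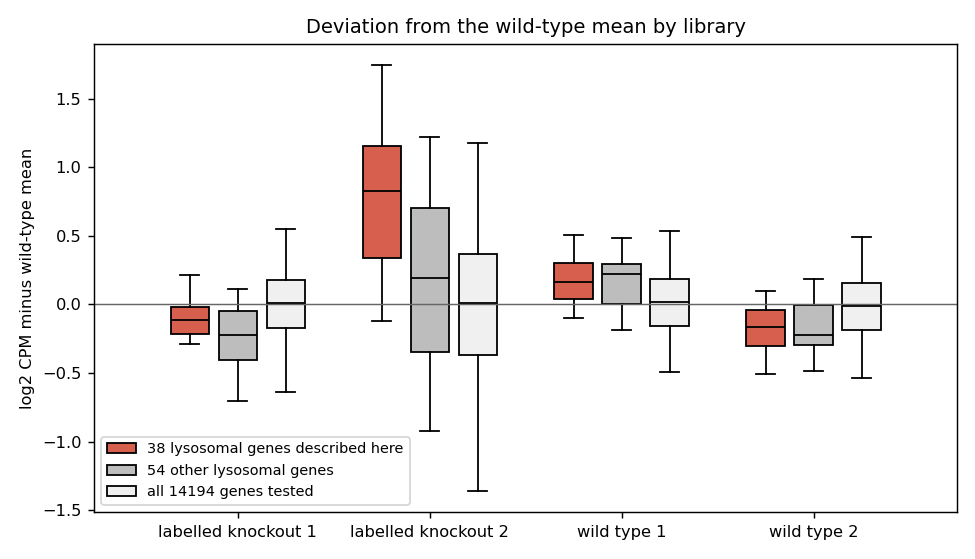
Boxes show log2 CPM minus the wild-type mean for the 38 lysosomal genes, 54 other lysosomal genes and all genes tested, by library; lines are medians, boxes quartiles and whiskers the 5th and 95th percentiles. The median of the 38 genes is 0.83 in labelled knockout 2 and -0.12 in labelled knockout 1.

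Single genes of these lists stood on both sides. Ctns, the cystine exporter, had a log2 fold change of 0.98 (SE 0.50), and Clcn7, a chloride and proton exchanger, was at 0.62 (SE 0.36). Manba, the beta-mannosidase, was at 0.06, with 112 and 288 CPM in the libraries labelled knockout, against 97.9 and 285 CPM in wild type. The library numbered 2 was thus the higher under both labels for Manba. Laptm4a, a small membrane protein, was at -0.15. Atp6v0a4, a form of the large V-ATPase subunit known from kidney, had 11.2 and 7.92 CPM, against 17.6 and 21.2 CPM in wild type, a log2 fold change of -1.02 (SE 0.36, unadjusted p = 0.0256, edgeR; adjusted p = 1.00), and was lower in both libraries labelled knockout. Tcirg1, the form used by osteoclasts, was at -0.55 (SE 0.38), and Atp6v1g1, a stalk subunit, at 0.35 (SE 0.34).

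Genes for the TFE factors and for proteins known to regulate them had their highest values in labelled knockout 2. All 10 tested genes of a list with the TFE factors, folliculin and the Rag GTPases had a positive fold change, 4 were higher in both libraries labelled knockout (11.7% of all genes tested) and 0 passed edgeR's test, with 1 at an unadjusted p under 0.05 (1.7% of all genes). Their median relative to wild type was -0.03 in labelled knockout 1 and 1.23 in labelled knockout 2. The 4 that were higher in both were Tfeb, Tfe3, Rragb and Rragc, with small margins in labelled knockout 1. Per kb of exon that library had 13.1, 37.3, 8.24 and 17.7 CPM. The higher wild-type library had 12.7, 36.4, 8.01 and 16.6 CPM per kb. Rragc, which encodes a Rag GTPase, had 45.8 and 163 CPM, against 38.3 and 43.1 CPM in wild type, Rragd, which encodes another, 19.96 and 99.3 CPM, against 21.2 and 25.3 CPM, and Tfe3, which encodes a TFE factor, 135 and 151 CPM, against 132 and 99.9 CPM.

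The E-box CACGTG and its longer forms were sought in RefSeq promoter windows of GRCm38.p6, from 250 bases before to 50 after the start site. The words searched, CACGTG, TCACGTGA and the 10-letter palindrome of the CLEAR element, read the same on both strands, and each longer one contains the shorter. Many lysosomal genes are known to carry the CLEAR element, as said above, so the shares describe the gene list and test nothing about these libraries. Of the 38 genes, 32 had a window. CACGTG was present for 16 of them, or 50%, against 11.8% of 11153 tested genes with a window, and TCACGTGA for 10, or 31.2%, against 2.08%. The longest was found for 1, Cln3, or 3.12%, against 0.744%. Outside the 38, CACGTG was present for 4 of 8 genes with a window in the mannose-6-phosphate sorting list (50%), 3 of 10 in the list of TFE factors and their regulators (30%), 5 of 19 autophagy genes (26.3%), 5 of 20 other hydrolases (25%), 3 of 14 other membrane proteins (21.4%) and 0 of 7 other V-ATPase genes. TCACGTGA was present for 2 of 8 sorting genes (25%), 3 of 14 other membrane proteins (21.4%), 2 of 19 autophagy genes (10.5%), 1 of 20 other hydrolases (5%) and none in the other lists.

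Mfsd1 and Lamp1 held the most copies, 5 and 4, and Dpp7 had the largest fold change. Hexa and Tpp1 are shown beside them because they were also high in labelled knockout 2 but held none in their windows. Each stretch of 100 bases is given 5′ to 3′ on the strand of the gene, with CACGTG in capitals. They lie at chr3:67582668-67582767 (plus strand) for Mfsd1, chr8:13159061-13159160 (plus) for Lamp1, chr2:25356390-25356489 (minus) for Dpp7, chr9:59539440-59539539 (plus) for Hexa and chr7:105752283-105752382 (minus) for Tpp1.
Mfsd1: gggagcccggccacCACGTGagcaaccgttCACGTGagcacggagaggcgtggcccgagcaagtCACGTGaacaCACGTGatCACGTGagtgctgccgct
Lamp1: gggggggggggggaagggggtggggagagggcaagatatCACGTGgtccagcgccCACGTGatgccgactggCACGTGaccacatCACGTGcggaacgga
Dpp7: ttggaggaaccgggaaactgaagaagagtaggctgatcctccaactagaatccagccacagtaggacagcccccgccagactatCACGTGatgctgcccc
Hexa: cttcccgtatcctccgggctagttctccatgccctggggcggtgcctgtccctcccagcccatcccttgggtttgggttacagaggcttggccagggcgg
Tpp1: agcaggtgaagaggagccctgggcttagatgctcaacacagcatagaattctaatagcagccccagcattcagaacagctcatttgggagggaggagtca

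Levels in labelled knockout 2 were set beside the presence of each word. Relative to the wild-type mean, the median there was 0.86 over the 16 genes with CACGTG and 0.84 over the 16 without it. With TCACGTGA it was 1.21 over 10 genes, from 0.26 to 2.00, and without it 0.83 over 22 genes, from -0.48 to 1.78. In labelled knockout 1 the medians with and without TCACGTGA were -0.02 and -0.17. The wild-type libraries also differed more in the genes with TCACGTGA, by a median of -0.50 against -0.29 without it (wild type 2 minus wild type 1). A match is only a run of letters, and binding was not measured.

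Markers of other cell types were read beside these values. Endoderm markers, of a cell type rich in lysosomes, had a summed level of 44.3 and 72.5 CPM in the libraries labelled knockout, against 38.3 and 29.9 CPM in wild type. Of the 8 that were tested among 13, 7 had a positive fold change (50.5% of all genes). Of these 8, 4 were highest in labelled knockout 2 (33.6% of all genes), 3 in wild type 1 and 1 in labelled knockout 1. Among the 13, Afp was at 0 counts in all 4 libraries, which allows up to 0.157 to 0.159 CPM by counting error alone. Foxa2 had 1 and 59 counts in the libraries labelled knockout, against 1 and 0 in wild type. Gata6 had 48 and 27 counts, against 52 and 11 in wild type, and was highest in wild type 1. Single genes such as these do not stand for the whole endoderm list. Neural markers summed to 124 and 167 CPM, against 96.1 and 125 CPM. All 5 that were tested among 7 had a positive fold change and were highest in labelled knockout 2. Trophoblast markers summed to 74.3 and 116 CPM, against 108 and 63.7 CPM, and 3 of the 5 tested were positive. Fibroblast markers summed to 62.9 and 29.9 CPM, against 89.4 and 37.3 CPM, and 0 of the 3 tested were positive. Macrophage markers, whose cells are also rich in lysosomes, summed to 0.888 and 0.879 CPM, against 2.51 and 2.33 CPM in wild type, and 7 of 8 had at most 3 counts in any library. The part of these cell types in the lysosomal values was not tested, and in such bulk samples more cells of a type and more RNA per cell cannot be told apart.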

How the data were processed

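The table as deposited by the authors holds whole-number counts of reads for each Entrez gene in 4 libraries, not normalized. HISAT2, featureCounts and the mm10 build are named, per the submitters' processing notes. The annotation, tool versions, strand setting and handling of reads with several matches are items not given in the sources used here. Per the labels' protocols, reads were 50 bases long.

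Symbols came from RefSeq GRCm38.p6, the assembly behind mm10, for 24061 gene numbers, and 55 had none. Genes were kept by filterByExpr and libraries scaled by TMM. Genotype was the only term of the model, tested with the quasi-likelihood F test of edgeR 4.0.16 in R 4.3.3, which had been tested on simulated data. P-values were adjusted over all genes tested by Benjamini-Hochberg and called under 0.05. Each log2 fold change is knockout over wild type, and the standard error (SE) was taken as their size over the root of F. Log2 CPM used a prior count of 2. The alternatives were 3 other scalings, 2 other filters, DESeq2 1.42.0, limma-voom (limma 3.58.1), the likelihood ratio test, replicate number as a block, a stricter threshold (0.01) and the removal of each library. Exon lengths and overlaps used GENCODE M21.

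Members and gene lists were chosen with earlier results of these data known. Values in every library are given for members past the threshold, those with the 5 lowest p-values or the 5 largest fold changes, those with over 2-fold between the highest and lowest library, and the 2 of each role with the highest mean CPM, not scaled by length. Gusb, Atp6v1e1, Tfeb, Rragb and the marker genes were added after their values were seen. Of each other list the 2 genes with the lowest p and the one with the highest mean CPM are named, apart from 2 that are not reported here.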

Additional observations from a re-analysis of the deposited data

How the results depend on the processing

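With all 4 libraries, edgeR's quasi-likelihood test called 0 genes, and 0 of the 38, under every scaling, filter and threshold tried, as did limma-voom; DESeq2 called 2 genes and the likelihood ratio test 4, none of the 38. The counts of members higher and lower in both libraries labelled knockout were 2 and 1, except 3 higher with RLE scaling and with no filter, 1 higher with a mean of at least 10 CPM, which left 36 members, and 2 lower with library totals only. The median of 0.40 ranged from 0.33 to 0.41 over these settings. No label says that equal replicate numbers mark a shared culture or day; across genes the difference of the libraries numbered 2 and 1 correlated at r = 0.347 between labels. A replicate block on these numbers called 0 genes, gave a median of 0.33 and moved the genes at an unadjusted p under 0.05 to 735, against 242.

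Leaving out each library in turn gave 0 to 91 genes called, 0 to 3 members called, 3 to 30 members higher, 1 to 15 members lower and a median of -0.12 to 0.81. These fits set 1 library against 2, whose spread the lone library is assumed to share. The 91 genes and 3 members were called without labelled knockout 1, and 8 genes and 0 members without labelled knockout 2. Without wild type 1 or 2 the median was 0.56 and 0.26.

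With no library left out, 4 members near 0 had the opposite sign somewhere. Glb1 was at -0.0199 with upper-quartile scaling, -0.027 with library totals only, -0.013 with limma-voom and -0.011 with the replicate block. Sgsh was at -0.0064 with upper-quartile scaling and -0.013 with library totals only. Scarb2 was at -0.044, -0.045, -0.0039 and -0.021 with upper-quartile scaling, library totals only, no filter and a mean of at least 10 CPM. Ctsz was at 0.00061 with limma-voom and 0.00069 with the replicate block. With a library left out, 33 members had the opposite sign at least once, with lowest to highest log2 fold changes of Asah1 (-0.28 to 0.15), Atp6ap1 (-0.24 to 0.88), Atp6v0a1 (-0.12 to 0.025), Atp6v0b (-0.11 to 0.87), Atp6v0c (-0.018 to 0.83), Atp6v0d1 (-0.054 to 1.20), Atp6v1a (-0.0696 to 0.36), Atp6v1c1 (-0.17 to 0.73), Atp6v1d (-0.13 to 0.89), Atp6v1h (-0.053 to 0.34), Cd63 (-0.53 to 1.62), Ctsa (-0.29 to 1.22), Ctsb (-0.24 to 0.64), Ctsd (-0.089 to 0.82), Ctsl (-0.18 to 1.58), Ctsz (-0.24 to 0.26), Dpp7 (-0.021 to 2.00), Gla (-0.14 to 0.62), Glb1 (-0.36 to 0.33), Hexa (-0.38 to 1.68), Lamp1 (-0.16 to 0.81), Lamp2 (-0.13 to 1.34), Mcoln1 (-0.28 to 1.15), Mfsd1 (-0.036 to 1.74), Naglu (-0.59 to 0.43), Neu1 (-0.30 to 0.91), Npc1 (-0.031 to 0.97), Npc2 (-0.28 to 1.07), Ppt1 (-0.25 to 0.85), Psap (-0.39 to 0.067), Scarb2 (-0.30 to 0.40), Sgsh (-0.21 to 0.25) and Tpp1 (-0.18 to 1.53). The other 5 members kept their sign in every setting. The cause was not tested.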

Other observations

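Genes that bring enzymes to the lysosome and genes of autophagy, the route by which cytoplasm reaches it, were mixed. Of 11 genes of mannose-6-phosphate tagging and sorting, 7 had a positive fold change, with a median log2 fold change of 0.25 and medians relative to wild type of -0.03 in labelled knockout 1 and 0.45 in labelled knockout 2. Gnptg, a subunit of the tagging enzyme, had 6.37 and 17.2 CPM in the libraries labelled knockout, against 5.70 and 6.59 CPM in wild type. Gga2, a sorting adaptor, had 221 and 385 CPM, against 223 and 172 CPM. Of 25 autophagy genes, 15 were positive, with a median of 0.06, and edgeR's test called 0 in either list.

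Uvrag, which takes part in the maturation of autophagosomes, was at 0.89 (SE 0.43), with 40.8 and 98.9 CPM in the libraries labelled knockout against 43.6 and 31.8 CPM in wild type. Wipi1, which binds the lipids of the forming membrane, was lower in both libraries labelled knockout, with 26.96 and 18.6 CPM against 44.05 and 29.6 CPM. Ulk1, the kinase that starts autophagy, had 522 and 456 CPM, against 660 and 467 CPM.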
